A study of Mus musculus with 2 samples.

Results

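Translation initiation factors, elongation factors and aminoacyl-tRNA synthetases were examined in Lin-c-kit+Sca1+ cells sorted from mouse bone marrow, a fraction that holds the haematopoietic stem cells and early progenitors. Members were the probe sets annotated to 1 gene whose symbol begins Eif or Eef followed by a digit, has the form of a cytosolic synthetase symbol (such as Aars or Yars) or is Eprs, leaving out Eif2s3x and Eif2s3y. The rule found 83 of 12488 probe sets, covering 63 of the 8251 genes named by at least 1 probe set. They comprised 39 initiation genes (55 probe sets), 8 elongation genes (9 probe sets) and 16 tRNA synthetase genes (19 probe sets). The symbol rule also took in regulators that are not factors themselves, namely 4 eIF2 kinases, the eIF4E-binding proteins, the eEF2 kinase gene Eef2k and the eEF1A methyltransferase gene Eef1akmt1.

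The study deposited 2 arrays of this fraction, sample 1 and sample 2, which form 1 group with no treatment, genotype or second condition in the labels. Strain, age and the number of animals are not given in the labels, so the spread between the samples may be technical. The RNA of both went through 2 rounds of amplification. With 1 group of 2 samples no test of a gene is possible, no p-value is given, and the number of arrays limits the precision.

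Initiation factors bring the initiator tRNA, the message and the small ribosomal subunit together at the start codon and then admit the large subunit. Elongation factors deliver aminoacyl-tRNA to the ribosome and move it along the message, and the synthetases charge each tRNA with its amino acid. Haematopoietic stem cells are known for a low rate of protein synthesis compared with the progenitors they give rise to. Phosphorylation of eIF2 by its kinases lowers initiation and favours translation of the transcription factor ATF4, whose target genes include many synthetases.

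Signals were quantile-normalized intensities without a unit, and a signal is compared only between the samples of 1 probe set, not between genes. Detection was judged against 15 control probe sets for bacterial genes, whose 90th percentile was 12.1 in sample 1 and 8.91 in sample 2 and is called the control level. Signals under a floor of 20 were set to 20 before log2, so a fold against a sample under the floor is written "at least". Differences are log2(sample 1) minus log2(sample 2), and a gene is represented by whichever of its probe sets was strongest on average over both samples. A gene is called measured when both of its signals were at or above 20. In bulk RNA, fewer cells of a type and less RNA per cell cannot be told apart.

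The labelled population was checked against marker genes. The 7 analysed genes of the sorted fraction all passed the control level in both samples, among them Kit at 25.8 and 19.4 and Cd34 at 43.9 and 57.3 in sample 1 and sample 2. Of 9 lineage antigen genes 3 were above it, Ms4a1, Ptprc and Ly6g. Ptprc is expressed in blood cells generally, so its signal does not mark a lineage. The T cell genes Cd3e, Cd3g, Cd4 and Cd8a had signals between 1.95 and 9.80. Of these Cd4, at 6.95 in sample 1 and 9.80 in sample 2, was above the control level in sample 2 alone. The same held for the T cell gene Cd5, which had 3.0 in sample 1 and 12.0 in sample 2. Of the 7 sorted fraction genes 2 were 2-fold or more higher in sample 2 and 1 in sample 1. Lyl1 had 695 in sample 1 and 2224 in sample 2, Flt3 had 137 and 322, and Myb had 490 and 232. Other marker lists also differed between the samples. The summed signal of 6 myeloid progenitor genes was 2874 in sample 1 and 831 in sample 2, and 1012 and 543 without Mpo, the strongest. Of these 6 genes 5 were 2-fold or more higher in sample 1. That of 8 early lymphoid genes was 1303 and 1898, and 368 and 1231 without the strongest gene Ighm, which lay the other way at 935 and 667. Of these 8 genes 4 were 2-fold or more higher in sample 2. That of 14 immediate early genes was 765 and 6048, and 12 of them were 2-fold or more higher in sample 2. Erythroid genes lay in both directions, with 2 of 4 analysed genes 2-fold or more higher in sample 1 and 2 in sample 2. Hba-a1 had 30.1 in sample 1 and 670 in sample 2, and Epor had 9.55 and 41.5. Car1 had 488 and 75.9, and Klf1 had 215 and 80.5. The part of these differences in the results below was not tested.

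Most of the translation genes were detected. Of 63 member genes 51 (81.0%) passed the control level in both samples, where 57.0% of all named genes did. The count was 33 of 39 for initiation, 5 of 8 for elongation and 13 of 16 for synthetases. A stricter level of 50 in both samples left 22 of 63 (34.9%), against 16.8% of all named genes. By the floor of 20, 42 member genes (66.7%) were measured in both samples, against 40.5% of all named genes, while 11 reached it in 1 sample only and 10 in neither.

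**Figure D1:**
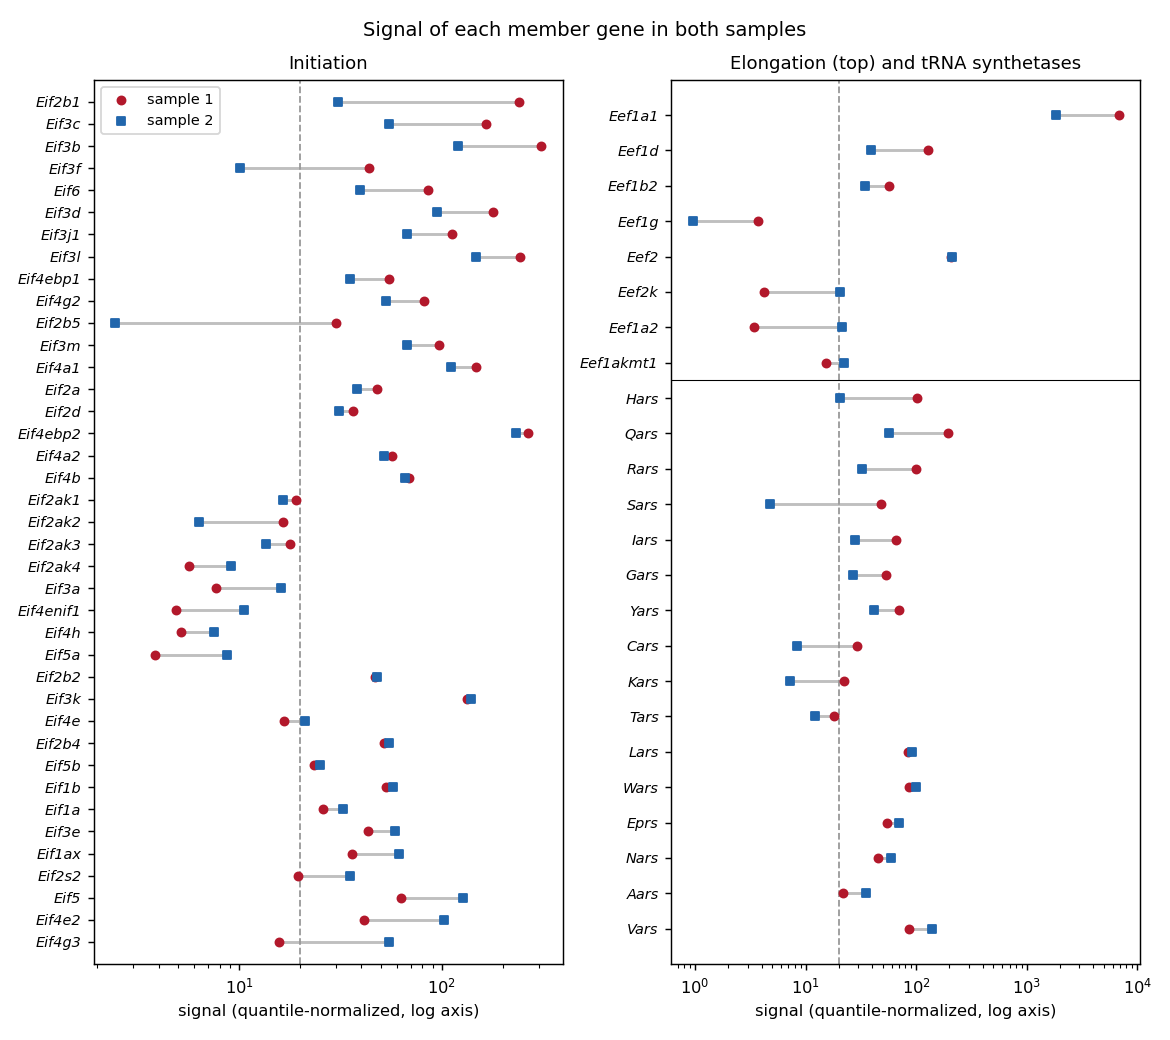
Quantile-normalized signal of all 63 member genes on a log axis, with sample 1 as circles and sample 2 as squares joined by a line, ordered by difference within initiation, elongation and synthetase genes. The dashed line is the floor of 20. Sample 1 lies well to the right of sample 2 in Eif2b1, Eef1a1, Hars and Qars, while the 4 eIF2 kinases lie left of the floor in both samples.

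More member genes lay 2-fold or more higher in sample 1 than in sample 2. Over all 63, 13 (20.6%) were 2-fold or more higher in sample 1 and 3 (4.76%) were 2-fold or more higher in sample 2. Over all 8251 named genes the shares were 6.62% and 6.44%. Among the 42 measured members the counts were 11 (26.2%) and 2 (4.76%), against 11.9% and 10.7% of the 3338 measured genes. The other 29 measured members (69.0%) were under 2-fold apart, as were 77.4% of all measured genes. With both signals at 50 or more, 4 of 22 members (18.2%) were 2-fold or more higher in sample 1 and 1 (4.55%) in sample 2, against 11.2% and 10.4% of 1385 genes.

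The shift was not shared by every member. The median difference was 0 over all 63 genes, as over all named genes, because many members lay near or under the floor. Over the 42 measured members it was 0.27 on the log2 scale, with 25 higher in sample 1 and 17 higher in sample 2, against a median of 0.0065 and 50.2% higher in sample 1 over all measured genes. Under the deposited scaling the same 42 genes were divided as 30 and 12, with a median of 0.37, and 54.3% of all genes measured on that scale were higher in sample 1. The SD between the samples was 0.72 on the log2 scale for measured members and 0.62 for all measured genes. The middle 90% of measured genes spanned -1.35 to 1.45. Of the measured members 7 lay above that range and 0 below it.

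**Figure D2:**
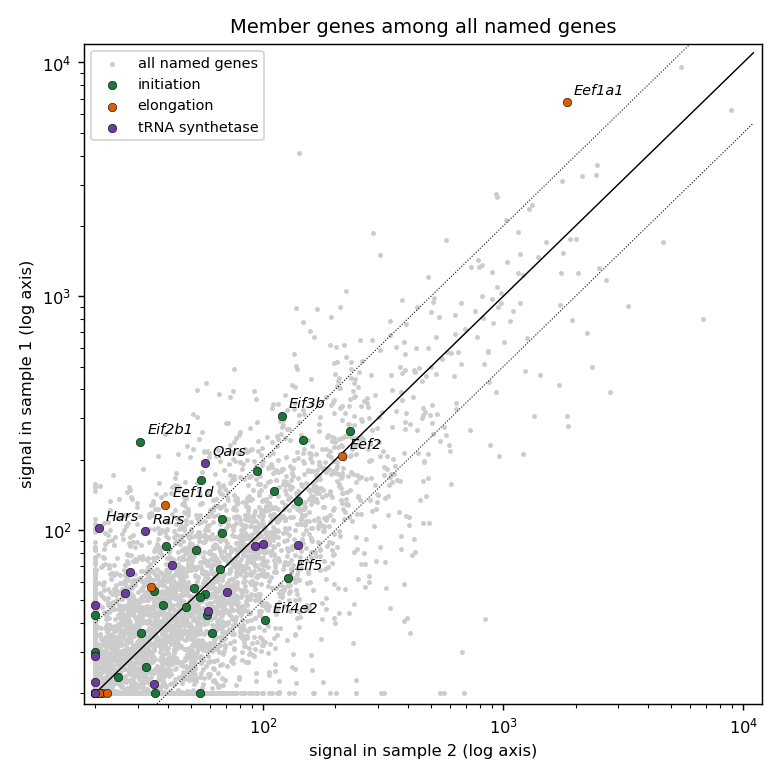
Signal in sample 1 (vertical, log axis) against signal in sample 2 (horizontal, log axis) for all 8251 named genes in grey and the member genes in colour, with signals under 20 drawn at 20. The solid line marks equal signals and the dotted lines a 2-fold difference. Eif2b1, Hars, Qars, Rars, Eef1d, Eif3b and Eef1a1 lie above the upper dotted line, and Eif4e2 and Eif5 lie below the lower one.

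**Figure D3:**
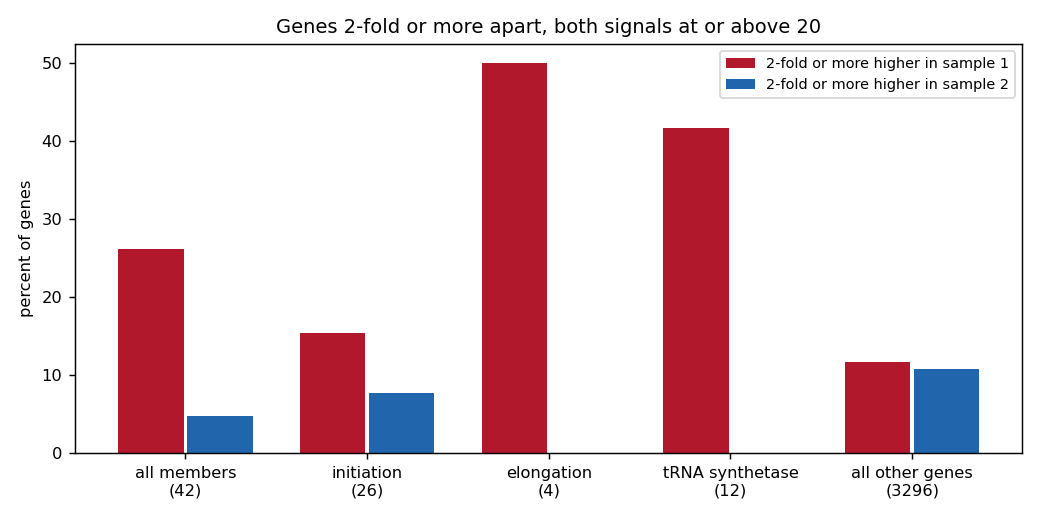
Percent of measured genes 2-fold or more higher in sample 1 (left bar) and in sample 2 (right bar), with the number of measured genes in brackets. For members the bars stand at 26.2% and 4.76%, and for the 3296 measured genes that are no members at 11.7% and 10.8%.

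Among initiation factors the widest difference was that of Eif2b1, which encodes the alpha subunit of eIF2B, the exchange factor that recharges eIF2 with GTP. Eif2b1 had 239 in sample 1 and 30.7 in sample 2, a 7.78-fold difference (log2 mean 6.42 ± 2.09, SD, n = 2). Of its partner subunits, Eif2b2 and Eif2b4 were nearly equal in both samples. Eif2b2 had 46.6 in sample 1 and 47.6 in sample 2, and Eif2b4 had 51.7 and 54.5. The catalytic subunit gene Eif2b5 had 30.0 in sample 1 and 2.45 in sample 2, at least 1.5-fold higher in sample 1, and its other probe set had 15.4 and 12.5, both under the floor. Of eIF2 itself, which carries the initiator tRNA, only the beta subunit gene Eif2s2 was analysed here. It had 19.5 in sample 1 and 35.4 in sample 2, at least 1.77-fold higher in sample 2. Its other probe set had 13.65 and 19.35, both under the floor.

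The kinases that phosphorylate eIF2 were near the control level. Eif2ak1, the haem-regulated kinase, had 19.1 in sample 1 and 16.4 in sample 2. Eif2ak3, the kinase PERK of the endoplasmic reticulum, had 17.8 and 13.6. Both were above the control level and under the floor. Eif2ak2, the double-stranded RNA kinase PKR, had 16.4 and 6.35, and the amino acid sensor Eif2ak4 (GCN2) had 5.65 and 9.15. Each of this pair failed the control level in at least 1 sample.

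Subunits of eIF3, the large scaffold that holds the small ribosomal subunit during initiation, were mostly higher in sample 1. Of 10 analysed subunits 9 were above the control level, against 57.0% of all named genes. Of the 8 measured, 6 had the higher signal in sample 1 and 2 in sample 2, with a median difference of 0.73, or 1.66-fold. Of all measured genes 50.2% were higher in sample 1. Under the deposited scaling the 8 were divided as 7 and 1, and 54.3% of all genes measured on that scale were higher in sample 1. Eif3b, a core subunit, had 309 in sample 1 and 119.5 in sample 2, a 2.58-fold difference. Its other probe set had 2.90 in both samples. Eif3c had 164 and 55.0, a 2.99-fold difference (log2 mean 6.57 ± 1.12, SD, n = 2). Both core subunits were higher in sample 1.

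Eif3d, the subunit known to bind the cap of some messages, had 179 in sample 1 and 94.0 in sample 2, and Eif3l had 243 and 147 by one probe set and 1.50 and 3.95 by the other. The loosely attached subunit gene Eif3j1 had 112 and 67.3, and Eif3m had 96.7 and 67.5. These 4 were 1.43-fold to 1.91-fold higher in sample 1. Eif3f had 43.5 in sample 1 and 10.1 in sample 2, at least 2.17-fold higher in sample 1. Eif3k, at 133 and 139, was nearly equal, and Eif3e had 43.4 in sample 1 and 58.5 in sample 2 by its strongest probe set. The other Eif3e probe set had 17.0 and 4.20, both under the floor. Eif3a, the scaffold subunit, was not measured, at 7.70 and 16.0.

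Of 8 analysed factors that bind the cap or unwind the leader, 5 were measured, 4 of them higher in sample 1, while 2 of the 8 (Eif4g3 and Eif4e2) were 2-fold or more higher in sample 2. The RNA helicase gene Eif4a1 had 147 in sample 1 and 110.6 in sample 2, and its paralogue Eif4a2 had 56.7 and 51.8. Eif4g2, a relative of the eIF4G scaffold that lacks the part binding eIF4E, had 82.0 and 52.8. These 3 were under 2-fold apart. Eif4g3 had 15.7 in sample 1 and 54.9 in sample 2, at least 2.74-fold higher in sample 2. Eif4e, the cap-binding protein, had only 16.6 in sample 1 and 21.0 in sample 2, and its other probe set had 2.25 and 4.90. The helicase cofactor gene Eif4h was under the control level in both samples, at 5.15 and 7.50.

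Eif4e2 encodes a cap-binding relative of eIF4E that represses translation. It had 41.1 in sample 1 and 102 in sample 2 by one probe set, 2.49-fold higher in sample 2, and 32.1 and 25.2 by the other, so its direction depended on the probe set. The helicase cofactor gene Eif4b was also divided among its 4 probe sets, at 68.5 and 65.9 by the strongest, at 14.6 and 48.4 by another and between 1.40 and 3.25 by the remaining pair.

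The inhibitors of eIF4E were detected. Eif4ebp2 had 264 in sample 1 and 231 in sample 2 by its strongest probe set, and 55.3 and 74.0 by another. Eif4ebp1 had 55.0 and 35.1, 1.57-fold higher in sample 1. The eIF4E transporter gene Eif4enif1 was under the floor in both samples, at 4.88 and 10.6.

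Factors of start site choice and subunit joining had no common direction. Of 8 measured genes, 3 lay higher in sample 1 and 5 in sample 2. Under the deposited scaling these were 4 and 4. Eif5, which triggers GTP hydrolysis by eIF2 at the start codon, had 62.6 in sample 1 and 128 in sample 2, 2.04-fold higher in sample 2. Under the deposited scaling its difference was -0.94, which is under 2-fold. Eif6, which keeps the large subunit from joining too early, had 85.6 in sample 1 and 39.6 in sample 2, 2.16-fold higher in sample 1. Eif5 and Eif6 thus differed in opposite directions.

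Eif1ax, needed for scanning, had 36.2 in sample 1 and 61.1 in sample 2, and its autosomal paralogue Eif1a had 25.9 and 32.4 by one probe set and 34.8 and 22.5 by the other. Eif1b had 53.1 and 57.5, and the subunit-joining GTPase gene Eif5b had 23.5 and 25.0. Eif2a and Eif2d can bring tRNA to the ribosome without eIF2, and Eif2a had 47.6 and 38.3 and Eif2d 36.3 and 31.1. These genes were under 2-fold apart. Eif5a, the factor that carries the modified residue hypusine, was under the control level in both samples, at 3.85 and 8.70. Its symbol placed it with initiation, although it is known to act in elongation and termination.

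The 3 measured genes of the elongation factor complex eEF1 were all higher in sample 1, with a median difference of 1.71 on the log2 scale. Eef1a1, which encodes the GTPase that carries aminoacyl-tRNA to the ribosome, had 6778 in sample 1 and 1837 in sample 2, a 3.69-fold difference (log2 mean 11.79 ± 1.33, SD, n = 2). Eef1d, of the exchange factor that recharges eEF1A, had 128 and 39.2, a 3.28-fold difference. Eef1b2, of the same exchange factor, had 57.3 and 34.3 by one probe set and 17.3 and 10.6 by the other.

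Not all elongation genes followed. Eef2, the translocase that moves the ribosome along the message, had 207 in sample 1 and 213 in sample 2, a difference of -0.038. Its kinase gene Eef2k had 4.20 and 20.7. The tissue-restricted paralogue Eef1a2 had 3.45 and 21.3, and the methyltransferase gene Eef1akmt1 had 15.3 and 22.4. Eef1g, at 3.75 and 0.95, was not above the control level in either sample. Each of these last 4 had at least 1 signal under the floor.

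Many messages of the translation machinery begin with a C followed by a run of pyrimidines, the 5′ terminal oligopyrimidine (TOP) tract, through which mTOR signalling controls their translation. Of 8 analysed members of a list of 9 such messages, 6 were measured, 4 of them higher in sample 1 (5 under the deposited scaling), with a median difference of 0.40. The start regions of Eif3f and Eef2 are shown. This pair of listed messages was picked because it differed both in signal and in the letters at the annotated starts. Eif3f was at least 2.17-fold higher in sample 1 and Eef2 nearly equal in both. Capitals mark the longest run of C and T within 30 bases of the annotated start, on the coding strand (RefSeq, GRCm38.p6).
Eif3f (chr7:108934386-108934450, plus strand): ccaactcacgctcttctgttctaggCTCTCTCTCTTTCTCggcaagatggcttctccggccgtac
Eef2 (chr10:81176620-81176677, plus strand): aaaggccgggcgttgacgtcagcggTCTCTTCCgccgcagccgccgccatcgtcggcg
The run is 15 bases long in Eif3f, from 4 bases before the annotated start, and 8 bases long in Eef2, from 14 bases after it. The annotated start was a C followed by at least 4 pyrimidines in Eif3f and not in Eef2. Such a start was found in 1 of the 63 member promoters (1.59%) and in 2.51% of all promoters, and a run of at least 6 within 30 bases of the start in 36.5% of member promoters and in 49.6% of all. A run of at least 8 was found there in 22.9% of all 32851 tabulated promoters and a run of at least 15 in 2.33%. Of the other listed messages, Eef1a1, Eef1b2 and Eif4b had a tabulated promoter, and none began with a C and at least 4 pyrimidines. Their longest runs were 10, 4 and 7 bases, and their differences 1.88, 0.74 and 0.056. Annotated starts were taken as given, so a start without the pattern does not show that a message lacks the tract.

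The synthetases were divided between enzymes higher in sample 1 and enzymes that were close in both samples. Of 16 genes 6 (37.5%) were 2-fold or more higher in sample 1 and 0 were 2-fold or more higher in sample 2. Over all named genes these shares were 6.62% and 6.44%. The 12 measured enzymes fell evenly, with 6 higher in sample 1 and 6 higher in sample 2. The share higher in sample 1 was 50.2% over all measured genes. The median difference of the 12 was 0.32. Over the same 12 it was 0.41 under the deposited scaling. The 6 higher in sample 2 were all under 2-fold apart.

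Hars, the histidine enzyme, had 102 in sample 1 and 20.7 in sample 2, a 4.93-fold difference, with the second signal next to the floor. Qars, the glutamine enzyme, had 194 and 57.2, a 3.40-fold difference (log2 mean 6.72 ± 1.25, SD, n = 2). Rars, the arginine enzyme, had 99.1 and 32.3, a 3.07-fold difference. All 3 lay above the middle 90% of measured genes. Iars, for isoleucine, had 66.5 and 28.0, and Gars, for glycine, had 53.8 and 26.6, at 2.37-fold and 2.02-fold. Sars, for serine, had 47.8 in sample 1 and 4.80 in sample 2, at least 2.39-fold higher in sample 1.

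A further 6 enzymes were somewhat higher in sample 2. Vars, for valine, had 86.4 in sample 1 and 140.1 in sample 2, and Aars, for alanine, had 21.9 and 35.2. Nars, for asparagine, had 44.9 and 58.7, and Eprs, which joins the glutamate and proline enzymes in 1 chain, had 54.4 and 70.7. Lars, for leucine, had 85.2 and 92.3. Wars, the tryptophan enzyme that interferon is known to induce, had 86.8 and 100.2 by its strongest probe set, 44.9 and 66.3 by another and 22.2 and 16.2 by the last. These 6 were 1.08-fold to 1.62-fold apart.

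Of the remaining enzymes, Yars, for tyrosine, had 70.8 in sample 1 and 41.7 in sample 2, a 1.70-fold difference, and its other probe set had 16.1 and 16.5. Cars, for cysteine, had 28.9 and 8.45, and Kars, for lysine, had 22.4 and 7.20. Tars, for threonine, was under the floor in both samples, at 17.9 and 12.1. Cars, Kars and Sars were above the control level in sample 1 alone, and the enzymes above it were 16 of 16 in sample 1 and 13 of 16 in sample 2.

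In animal cells several synthetases are held together in the multisynthetase complex. Of its 6 analysed enzymes 5 were measured. Iars, Qars and Rars were more than 2-fold higher in sample 1, while Eprs and Lars were higher in sample 2 by less than 2-fold. The median difference was 1.25 for these 5 and -0.21 for the 7 measured enzymes outside the complex. With enzymes under the floor included it was 0.70 for the 6 and 0.26 for the 12 analysed outside it, not all of them members. The sign outside the complex thus depended on leaving out enzymes under the floor. Of those 12, 3 were 2-fold or more higher in sample 1 and 0 in sample 2. Both scaffold genes were higher in sample 1. Aimp1 had 52.0 in sample 1 and 26.6 in sample 2, and Aimp2 had 182 and 121. Enzymes of the complex thus lay in both directions.

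**Figure D4:**
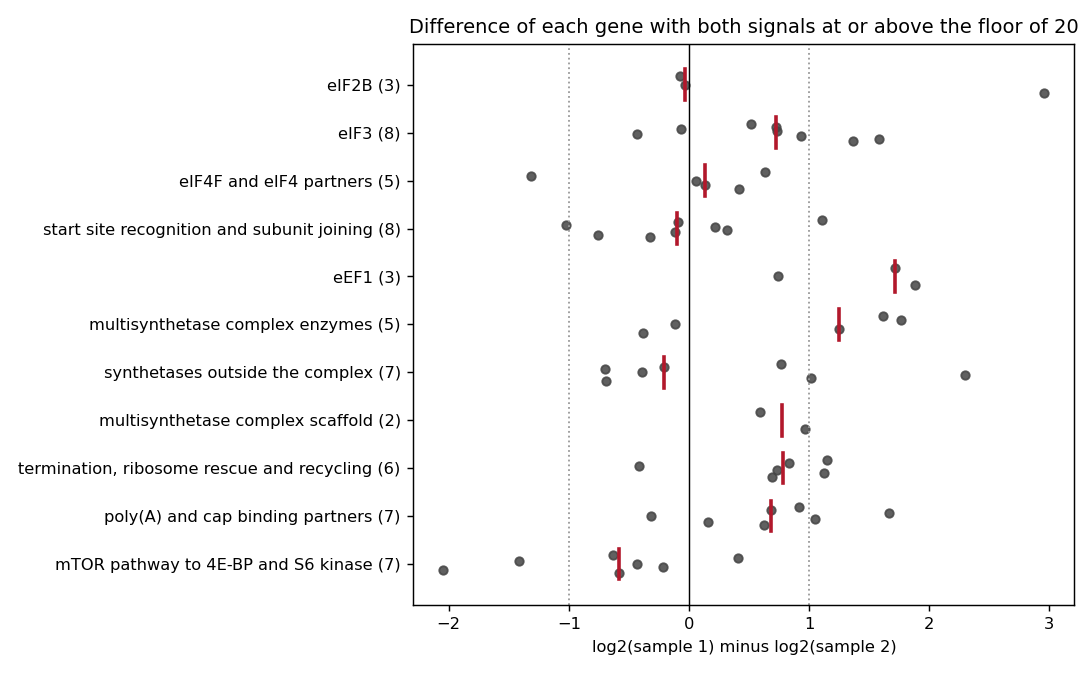
Difference log2(sample 1) minus log2(sample 2) of each gene with both signals at or above 20 (points), by complex or pathway, with the list's median as a bar and the number of genes in brackets. Dotted lines mark 2-fold. The eEF1, eIF3, termination and poly(A) lists have medians of 0.68 to 1.71, and the mTOR list has a median of -0.58.

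The promoters of the synthetases held a recurring sequence. Of the 63 member genes 48 had a promoter in the RefSeq table (250 bases before to 50 after the annotated start, GRCm38.p6), 9 of them synthetases. The motif TGATGNAA, the core of the element that ATF4 is known to bind, was searched on both strands. It lay in 5 of these 9 synthetase promoters, in 0 of 47 promoters of initiation genes, in 1 of 7 promoters of elongation genes (Eef2k) and in 3.97% of all 32851 promoters. The stretches are shown because these enzymes share the motif and not a direction. Capitals mark it, as TGATGNAA or its reverse complement.
Aars (chr8:111033705-111033883, plus strand): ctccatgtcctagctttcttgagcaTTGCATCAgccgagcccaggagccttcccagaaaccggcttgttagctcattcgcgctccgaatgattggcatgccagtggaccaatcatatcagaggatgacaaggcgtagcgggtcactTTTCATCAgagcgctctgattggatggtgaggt
Gars (chr6:55037946-55038003, plus strand): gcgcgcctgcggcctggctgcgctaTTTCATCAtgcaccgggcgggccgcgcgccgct
Iars (chr13:49682112-49682169, plus strand): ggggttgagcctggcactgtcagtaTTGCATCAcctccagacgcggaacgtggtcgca
Tars (chr15:11399641-11399698, minus strand): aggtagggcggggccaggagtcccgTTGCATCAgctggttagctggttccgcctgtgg
Yars (chr4:129189881-129189938, plus strand): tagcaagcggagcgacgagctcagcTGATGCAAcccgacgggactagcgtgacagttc
The motif began 30 bases before the annotated start in Gars, 15 before it in Tars, 3 after it in Yars and 7 after it in Iars. Aars held it at 112 bases before the start and again 9 after it. Of the 5 genes with it, Gars and Iars were 2-fold or more higher in sample 1, and of the 4 without it, Qars and Sars were. A match is a description of these letters and does not show binding.

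The E-box CACGTG, which Myc and Max and other factors bind, was found in promoters of 13 of the 48 genes. It lay in 23.8% of their 63 promoters and in 7.15% of all promoters. Eif4e, a known Myc target, is shown because it held this E-box in a pair, in the promoter of its second annotated start. Capitals mark both copies, 228 and 64 bases before that start.
Eif4e (chr3:138527018-138527234, plus strand): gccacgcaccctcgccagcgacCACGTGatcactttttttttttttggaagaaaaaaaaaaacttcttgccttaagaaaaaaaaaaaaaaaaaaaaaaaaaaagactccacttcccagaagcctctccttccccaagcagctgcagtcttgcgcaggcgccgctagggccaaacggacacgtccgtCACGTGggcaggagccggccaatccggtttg
Of the 13 genes with an E-box 2 were 2-fold or more higher in sample 1, and of the 35 without it 7 were. Eif4e itself was near the floor in both samples by its strongest probe set.

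Neighbouring steps of translation were compared through lists chosen with earlier results of these data known. Of 7 genes of termination, ribosome rescue and recycling 6 were above the control level and measured, 5 of them higher in sample 1, with a median difference of 0.79. For comparison, 57.0% of all named genes were above the control level, and 50.2% of all measured genes were higher in sample 1. Etf1, the release factor that reads stop codons, had 165 in sample 1 and 75.8 in sample 2. Abce1, which splits the ribosome for recycling, had 71.8 and 44.4, the rescue factor gene Hbs1l had 61.1 and 34.2, and its partner Pelo had 65.1 and 29.3. Gspt2, a relative of the release factor GTPase gene Gspt1, was chosen after its values were seen as the 1 measured gene higher in sample 2, at 20.95 in sample 1 and 27.9 in sample 2. Of the 7 genes 2 were 2-fold or more higher in sample 1 and 0 in sample 2, against 6.62% and 6.44% of all named genes.

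Of 7 measured partners that bind the poly(A) tail or the cap, 6 were higher in sample 1, against 50.2% of all measured genes. Their median difference was 0.68. Pabpc1, the poly(A)-binding protein that bridges to eIF4G, had 2125 in sample 1 and 1026 in sample 2. Pdcd4, an inhibitor of the eIF4A helicase, had 472 and 250.4. The nuclear poly(A)-binding gene Pabpn1 differed most in this list, at 177 and 55.7, 3.18-fold apart. Pabpc4 went the other way with 277 and 346.

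Genes of the mTOR pathway, which feeds growth signals to 4E-BP and S6 kinase, were mostly higher in sample 2. The list of 10 analysed genes also held Mknk1, Mknk2 and Rps6ka3, kinase genes outside that pathway. Of the 10 genes 7 were measured, with a median difference of -0.58. Of these, 6 were higher in sample 2, Mknk2 included, and 1 was higher in sample 1. The share higher in sample 1 was 50.2% over all measured genes. Mtor, the kinase, had 54.6 in sample 1 and 73.6 in sample 2. Tsc2, its upstream inhibitor, had 48.5 and 75.1, and Akt1 had 44.4 and 66.4. The S6 kinase gene Rps6kb2, chosen after its values were seen, had 24.4 in sample 1 and 64.95 in sample 2, 2.66-fold higher in sample 2. Mknk2, the kinase that phosphorylates eIF4E, differed most in this list, at 22.7 in sample 1 and 93.6 in sample 2. This was a 4.12-fold difference by the stronger of its 2 probe sets.

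Genes of the ATF4 response were mixed. Of 16 analysed genes, the 4 eIF2 kinases included, 10 were above the control level and 7 were measured, 5 of them higher in sample 1. Atf4 had 169 in sample 1 and 255 in sample 2. Its known target Asns, the asparagine synthetase gene, had 181 and 113. Psat1, of serine synthesis, had 129.8 and 54.6, and Mthfd2, of mitochondrial folate metabolism, had 344 and 159.8. Past 2-fold, 2 genes were higher in sample 1 (Psat1 and Mthfd2) and 2 in sample 2 (Ppp1r15a and Cebpb). The genes that follow were chosen after their values were seen. Ppp1r15a, the eIF2 phosphatase subunit, had 11.2 in sample 1 and 80.9 in sample 2, at least 4.04-fold higher in sample 2. Cebpb, a transcription factor gene, had 17.6 and 60.9, at least 3.05-fold higher in sample 2. Shmt2, of mitochondrial serine metabolism, had 94.8 and 129. Atf5 had 7.20 and 22.6 and Trib3 3.75 and 21.95, with sample 1 under the floor. Ddit3, a target induced under stress, was under the floor in both samples at 10.4 and 10.1. The list thus lay in both directions.

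The reliability of single probe sets was limited. Of the 63 member genes 47 had 1 probe set and 16 had several. Only 4 genes had at least 2 measured probe sets, and in 1 of these (Wars) the measured probe sets had the same direction. In Eif1a, Eif4e2 and Eif4ebp2 they differed in direction. Over all 360 named genes with several measured probe sets the direction was shared in 53.6%, and the SD of the difference between probe sets of 1 gene was 0.76 on the log2 scale. Most member differences given here rest on 1 probe set. For list genes that are no members only the strongest probe set is given, although some had several. Among these were Etf1 with 5 probe sets and Tsc2 and Sars2 with 3 each.

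Control probe sets differed along the message. For Gapdh the difference was 1.29 with the 5′ probe set (193 in sample 1 and 78.9 in sample 2), 0.90 with the middle one and 0.54 with the 3′ one. For Actb it was 0.15, 0.25 and -0.95, the 3′ probe set having 2012 in sample 1 and 3875 in sample 2. In both genes sample 2 was lower, relative to sample 1, at the 5′ end than at the 3′ end. The position of the member probe sets along their messages was not used here, and the part of this gradient in their differences was not tested.

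**Figure D5:**
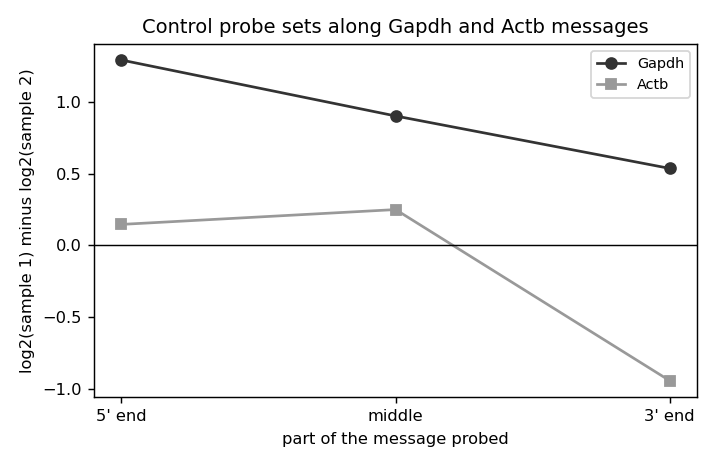
Difference log2(sample 1) minus log2(sample 2) of the control probe sets for the 5′ end, middle and 3′ end of Gapdh (circles) and Actb (squares). Both genes have a lower difference at the 3′ end, 0.54 for Gapdh and -0.95 for Actb, than at the 5′ end, 1.29 and 0.15.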

How the data were processed

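Per the labels, RNA amplified in 2 rounds was hybridised to an array of 12488 probe sets. The authors deposited 1 linear signal intensity for each probe set and sample, and the columns share a mean of 53.9. Their summarising software, scaling and detection calls are not given in the sources used here. Both columns were quantile-normalized together, floored at 20 and then log2-transformed (Python 3.11.15, pandas 2.3.3, NumPy 2.4.6, SciPy 1.17.1). In each sample 57.6% of values were under the floor.

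Gene counts leave out 66 control probe sets, 396 probe sets naming several genes and 1193 with no name in the platform annotation. The total of 12488 probe sets and the 57.6% of values under the floor include the control probe sets. All 63 member genes matched the GRCm38.p6 gene table by gene ID. For detection, 1 probe set of a gene over the control level in both samples sufficed. All member genes could be named. Of other lists the 3 genes with the highest mean signal among those detected and the most different measured gene were named, and of the marker lists any gene. Further genes were chosen after their values were seen, as stated beside them. The members and lists were chosen with earlier results of these data known. Alternatives were other scalings, floors, filters, control levels and ways to combine probe sets, and each sample alone.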

Additional observations from a re-analysis of the deposited data

How the results depend on the processing

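The counts of member genes 2-fold or more higher in sample 1 stayed within 1.5 times of 13 under all alternatives tried. Without the floor, the number 2-fold or more higher in sample 2 was 8 for all members, 6 for initiation and 2 for elongation. With an offset of 32 in place of the floor it was 0 for all members and 0 for initiation, and 3 initiation genes were 2-fold or more higher in sample 1. The median over all 8 elongation genes was -0.019. It turned positive with the deposited scaling (0.0072), without the floor (0.35), with the offset (0.042), over genes above the control level (0.74), over measured genes (1.23) and without the regulators (0.37). The cause was not tested. At a signal of 50 or more in both samples the detected genes were 22 in all, 15 of initiation, 2 of elongation and 5 synthetases. In each sample alone 55 to 56 members were detected, with 34 to 36 of initiation, 5 to 7 of elongation and 13 to 16 synthetases. Of the 16 genes past 2-fold, 7 were under 2-fold with the offset, 2 with the mean over probe sets (Eif3b and Eif4e2) and 1 with the deposited scaling, and 0 changed direction under the 5 settings computed for single genes. The scalings moved the median of all measured genes by less than 0.1. Probe sets without a letter before their ending, and members without regulators, were alternatives chosen after seeing the data, and the counts of 13 held under both. No difference can be computed without either replicate. No paired analysis was possible because the samples form 1 group.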

Other observations

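Mitochondrial translation was represented by few genes. All 5 analysed mitochondrial synthetase genes were above the control level, and Rars2, the mitochondrial arginine enzyme, had 149.8 in sample 1 and 44.4 in sample 2, a 3.38-fold difference. Its cytosolic counterpart Rars was 3.07-fold apart in the same direction. Fars2, for phenylalanine, had 39.3 and 41.2. Sars2 had 15.3 in sample 1 and 65.8 in sample 2 by the strongest of its 3 probe sets. It was at least 3.29-fold higher in sample 2, the opposite of cytosolic Sars. Tufm, the mitochondrial elongation factor, had 78.2 and 37.9, Gfm1 had 28.0 and 21.5, and Mtif2 had 19.3 and 31.95.

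Of 12 analysed Myc and nucleolar growth genes 11 were above the control level and 9 were measured, 6 of them higher in sample 1. Npm1, a nucleolar chaperone of ribosome assembly, differed most, at 617 in sample 1 and 217 in sample 2. Nop56 had 173 and 166 and Polr1b, of RNA polymerase I, 154 and 165. Myc, chosen after its values were seen, was under the floor in both samples, at 14.0 and 18.1.

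A probe set that names the exon junction helicase gene Eif4a3 together with other loci was no member. It had 319 in sample 1 and 183 in sample 2, a 1.74-fold difference.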
